A study of Homo sapiens with 19 samples.

Results

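Solute carriers are membrane proteins that move amino acids, sugars, ions, nucleosides, vitamins and other small molecules across the plasma membrane and the membranes of organelles. They are named by family and member, as in SLC7A5, the fifth member of family 7. Of the 11701 genes in the skipped exon tables of the series, 204 had a symbol of this form, and 2 antisense symbols were left out. The symbol alone chose them, and no measured value did. By name 198 of the 204 are carriers, and the other 6 (SLC22A18AS, SLC2A4RG, SLC4A1AP, SLC7A6OS, SLC9A3R1 and SLC9A3R2) only share the letters of a carrier's symbol. All 204 are called SLC genes below. The rule left out 20 SLC symbols with another family letter and 4 SLCO symbols.

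The cells were HMLE/Twist-ER, a line of immortalized human mammary epithelial cells that carries the transcription factor Twist fused to the estrogen receptor, so that tamoxifen switches Twist on and drives the epithelial-mesenchymal transition (EMT). Untreated cells are called EPI here, and cells kept in 20 nM tamoxifen until they looked mesenchymal are called MES. Both states carried a lentiviral shRNA, either non-specific (control) or against AKAP8, an RNA-binding protein that takes part in splicing. Poly(A) RNA was sequenced from 3 EPI control, 3 EPI shAKAP8, 3 MES control and 2 MES shAKAP8 cultures, described in the study's methods as biological replicates. Every MES culture and no EPI culture had tamoxifen, so effects of the drug and of the transition cannot be told apart. The line is an engineered one, and the RNA was from mixed cells of a culture, so fewer cells of a kind and less RNA per cell cannot be told apart either.

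The level of a gene was its sum of inclusion and skipping junction reads over the skipped exon (SE) events listed in all 3 comparisons, divided by a size factor of the library. It is called scaled junction reads below, and it follows reads at these junctions and not the whole transcript. It is not per length, so levels are compared between libraries and not between genes. Of the 204 genes, 146 had such an event, 4 of these had too few reads and 142 were tested, with 1 to 17 events per gene (median 3). The other 58 have no level here. The libraries held 31258177 to 40852217 SE junction reads. A gene was called where limma, fitted to log2(scaled junction reads + 1) of all 11 libraries and 9016 genes, gave a log2 fold change over 1 in size and a Benjamini-Hochberg adjusted p under 0.05. Because 1 is added, a fold change of a gene with few reads is understated.

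AKAP8 itself checked the labels. It fell to 115 ± 14.0 scaled junction reads in EPI shAKAP8 from 266 ± 37.8 in EPI control (SD, n = 3 each; log2 fold change -1.20, limma adjusted p = 0.066), and stood at 115 ± 9.62 (n = 2) in MES shAKAP8 against 275 ± 96.2 (n = 3) in MES control (-1.20, adjusted p = 0.032). The groups did not overlap in either state, and the EPI difference missed the adjusted threshold. The MES call was lost without the first listed EPI control, the first or the last listed MES control or either MES shAKAP8 library (adjusted p up to 0.177). In the control cells, 6 of 6 tested epithelial markers, among them CDH1, were lower in MES and 10 of 10 tested mesenchymal markers, among them VIM and FN1, were higher. None of the 5 blood cell markers had an SE event in all 3 comparisons, so their level was not measured.

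Knockdown of AKAP8 in MES cells left 7 carriers higher and 1 lower. Of the 7, 5 move amino acids: SLC6A9, SLC1A4, SLC7A5, SLC7A1 and SLC1A5. The other 2 were SLC22A17 and SLC17A5, and the carrier that fell was SLC44A1, a choline transporter. Over all 9016 genes 1.10% were called higher and 1.18% lower, against 7 and 1 of the 136 tested carriers.

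SLC6A9, the glycine transporter GLYT1, had 39.2, 73.4 and 51.6 scaled junction reads in the MES controls and 215 and 296 in MES shAKAP8. Both knockdown libraries were above every control library. The log2 fold change was 2.23 (SE 0.31, limma adjusted p = 0.0031), the largest among the 8. In EPI the same gene had 66.4, 74.8 and 76.5 in the controls and 138, 154 and 99.9 after knockdown, a log2 fold change of 0.82 that did not pass (adjusted p = 0.315), although those groups did not overlap either.

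SLC1A4, a sodium-dependent transporter of alanine, serine and cysteine, had 87.2, 119 and 159 scaled junction reads in the MES controls and 424 and 390 after knockdown. The log2 fold change was 1.77 (SE 0.28, adjusted p = 0.0062). Its relative SLC1A5, the main glutamine transporter of many cultured cells, had 1466, 1983 and 2150 in the MES controls and 4237 and 4398 after knockdown (log2 fold change 1.23, SE 0.21, adjusted p = 0.0088). Both knockdown libraries of each gene were above every control. In EPI 0 of the 3 tested SLC1 members, SLC1A4 and SLC1A5 among them, were called. All 3 had an unadjusted p under 0.05 in limma there, 2 with a log2 fold change above 0 (up to 1.05) and 1 below (-0.88).

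SLC7A5 is the light chain of the transporter LAT1, which exchanges large neutral amino acids such as leucine. It had 1573, 1258 and 983 scaled junction reads in the MES controls and 2981 and 4988 after knockdown, a log2 fold change of 1.63 (SE 0.27, adjusted p = 0.0068). The knockdown libraries were far apart but both were above the controls. In EPI the controls had 3291, 3541 and 2595 and the knockdown libraries 4767, 2946 and 3633, and these overlapped (0.25, adjusted p = 0.838).

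SLC7A1, a transporter of arginine and lysine, had 483, 642 and 600 scaled junction reads in the MES controls and 1329 and 1395 after knockdown, with a log2 fold change of 1.25 (SE 0.18, adjusted p = 0.0038). SLC7A1 and SLC6A9 kept their call when any single library was left out. The other 6 each lost it without at least 1 library. SLC17A5 and SLC1A4 lost it without the first listed MES shAKAP8 library (adjusted p = 0.059 and 0.067), SLC7A5 and SLC44A1 without the second (0.086 and 0.052), SLC1A5 without either (0.068 and 0.077), and SLC22A17 without either or without the first or second listed MES control (0.054 to 0.124). Without the first or without the second MES shAKAP8 library 4 carriers were called, the lone library then being assumed to vary like those of the other groups.

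**Figure D1:**
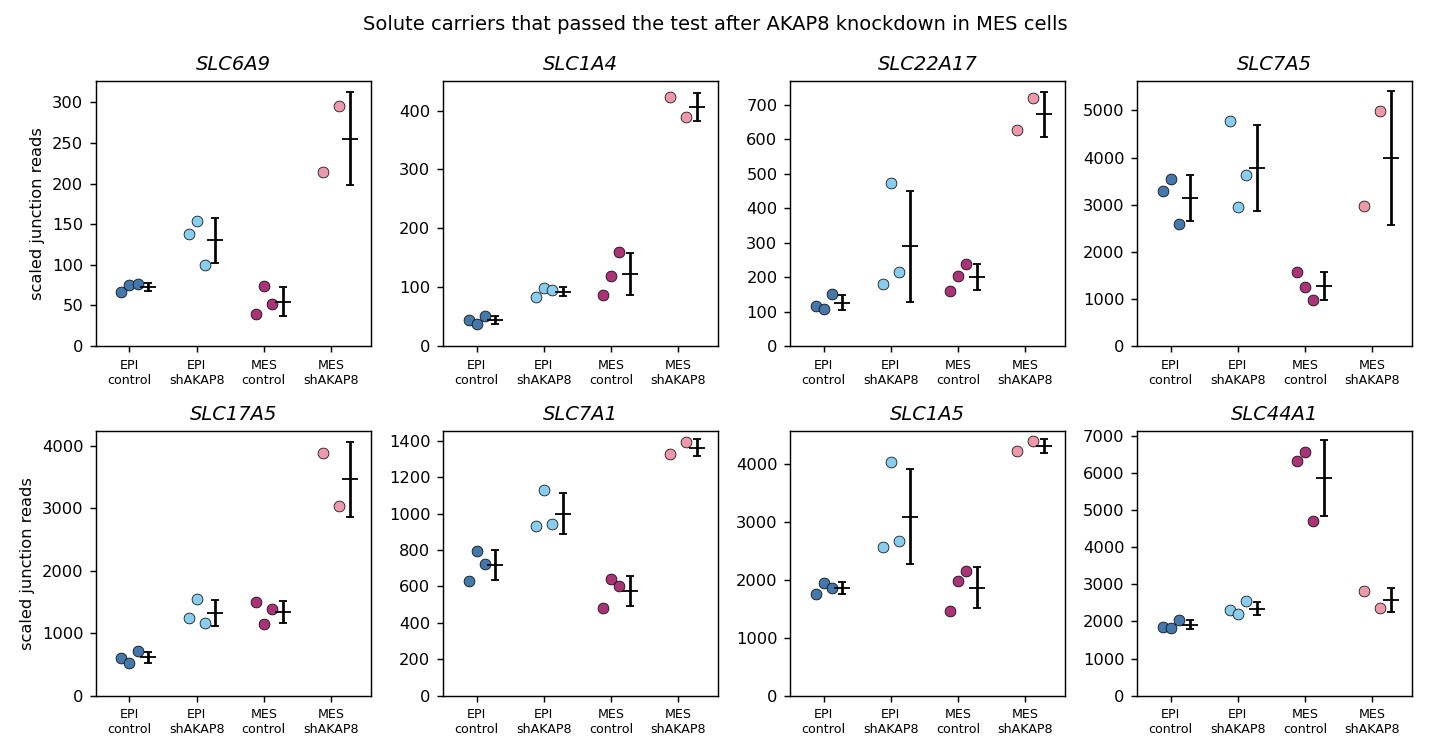
Scaled junction reads (vertical axis) of the 8 carriers called in MES after AKAP8 knockdown, in each library of the 4 groups; the bars give the mean and SD of each group. The MES shAKAP8 libraries lie above all MES controls in 7 panels and below them for SLC44A1.

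Classes were set by gene family and not by each member's substrate, so SLC6A8, the creatine transporter, counts among the amino acid carriers. Among all 25 tested amino acid carriers, 5 were called higher and 0 lower in MES, and the median log2 fold change was 0.50, against -0.013 over all genes tested. At an unadjusted p under 0.05 there were 11 of the 25 in MES (44%, against 21.8% of all genes). In EPI 0 of the 25 were called, 8 had an unadjusted p under 0.05 (32%, against 9.87% of all genes), and the median was 0.34 against -0.0075 over all genes. The log2 fold change was above 0 in both states for 16 of the 25 (64%, against 31.6% of all genes). The 25 include the 5 carriers called above, and the lists were chosen with earlier results of these data known. These shares therefore describe the class and are not a test of it. The 2 states have their own controls, so their fold changes share no library. Both took their spread from 1 fit of all 11 libraries, so their p-values are not independent.

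More amino acid carriers lay just under the threshold in MES. SLC3A2, the heavy chain that SLC7A5 and SLC7A11 need to reach the cell surface, had 8925, 9344 and 6361 scaled junction reads in the controls and 17941 and 13592 after knockdown, with a log2 fold change of 0.95 (adjusted p = 0.038) that missed the fold cutoff. Its 2 knockdown libraries were above all controls. SLC7A6, a transporter of basic and neutral amino acids, was likewise past the adjusted threshold at 0.77 (adjusted p = 0.028). SLC7A11, the cystine-glutamate exchanger, had 262, 376 and 475 in the controls and 1068 and 846 after knockdown (1.40, adjusted p = 0.055), so it did not pass. SLC16A14, a monocarboxylate family member, had the highest log2 fold change of any tested carrier (2.81, adjusted p = 0.050), but it rests on 1.96, 0 and 6.32 reads in the controls against 17.2 and 20.0 after knockdown, and it was not called.

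The other 8 of the 25 amino acid carriers were below 0 in MES and not called, SLC38A11 and SLC36A4 among them with an unadjusted p under 0.05 in limma. The lowest was SLC38A11, at -2.53 (adjusted p = 0.085), a change larger in size than that of any called carrier. It rests on 5.88, 11.2 and 5.27 scaled junction reads in the controls against 0.958 and 0 after knockdown. SLC36A4, of the proton-coupled amino acid transporter family, was at -0.81 (adjusted p = 0.080), and the remaining 6 lay between -0.35 and -0.11.

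SLC17A5, the lysosomal exporter of sialic acid, was the only carrier called in both states. In MES it had 1495, 1146 and 1391 scaled junction reads in the controls and 3889 and 3038 after knockdown (1.36, SE 0.20, adjusted p = 0.0038). In EPI it had 606, 531 and 712 in the controls and 1251, 1551 and 1164 after knockdown (1.10, SE 0.18, adjusted p = 0.021). It was the single carrier called in EPI, where 0.189% of all genes passed. That EPI call was lost without the first or second listed EPI control library, without the first or second listed EPI shAKAP8 library, and where the model held the EPI groups only.

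SLC22A17, the lipocalin-2 receptor, had 160, 203 and 237 scaled junction reads in the MES controls and 627 and 718 after knockdown (1.76, SE 0.35, adjusted p = 0.016). In EPI it had 118, 108 and 151 in the controls and 179, 474 and 214 after knockdown (1.08, adjusted p = 0.220). The second listed EPI shAKAP8 library was far above the other two.

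SLC44A1 went the other way in MES, with 6316, 6570 and 4696 scaled junction reads in the controls and 2810 and 2352 after knockdown (-1.17, SE 0.17, adjusted p = 0.0039). In EPI it had 1856, 1834 and 2045 in the controls and 2305, 2197 and 2539 after knockdown, a difference of 0.29 that did not pass (adjusted p = 0.602). The MES knockdown values thus lay nearer to those of EPI cells than to the MES controls. Tested directly, the MES change minus the EPI change was -1.47 for SLC44A1 (adjusted p = 0.079). By this test of the difference between the knockdown effects 0 of the 142 tested SLC genes were called, while 0.0111% of all genes were. At an unadjusted p under 0.05 in limma there were 9 (6.34%, against 6.54% of all genes). A carrier called in MES and not in EPI is therefore not shown to differ between the states.

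**Figure D2:**
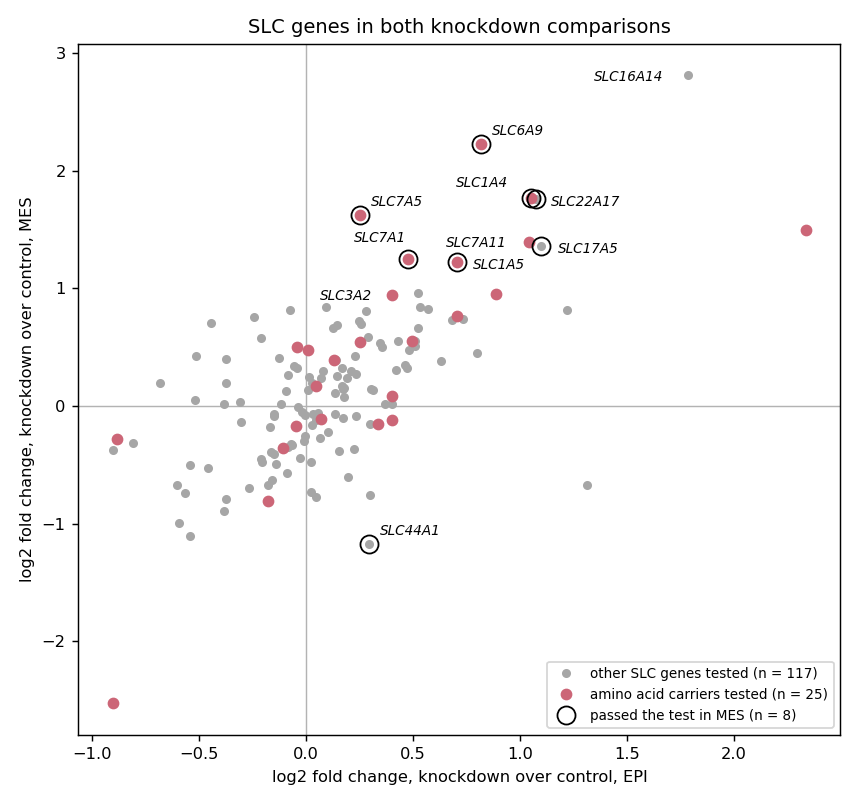
Log2 fold change after AKAP8 knockdown of the 142 tested SLC genes in EPI (horizontal axis) and in MES (vertical axis); each point is a gene. SLC17A5 was called in both states, and SLC6A9, SLC1A4, SLC22A17, SLC7A5, SLC7A1, SLC1A5 and SLC44A1 in MES only, while 0 SLC genes passed the test of the difference between states.

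The carriers of the mitochondrial inner membrane, the SLC25 family, were the largest class. Of the 31 tested, 0 were called in either knockdown by limma, with 3 at an unadjusted p under 0.05 in EPI (9.68%, against 9.87% of all genes) and 7 in MES (22.6%, against 21.8%), and their median log2 fold change was 0.0066 in EPI and 0.033 in MES. SLC25A23 (-0.89, adjusted p = 0.019) and SLC25A30 (-0.69, adjusted p = 0.038) passed the adjusted threshold in MES and not the fold cutoff. In the zinc class, of the SLC30 exporters and SLC39 importers, 0 of 14 were called in either knockdown, with 3 at an unadjusted p under 0.05 in each state (21.4%, against 9.87% of all genes in EPI and 21.8% in MES). The classes of sugars (9 tested) and of pH, bicarbonate and chloride (14 tested) also had 0 calls in both knockdowns.

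Other transport genes were a list of pumps, ABC carriers, channels and regulators that work beside the solute carriers. Of 42 tested, 0 were called in EPI by limma, where 5 had an unadjusted p under 0.05 (11.9%, against 9.87% of all genes). In MES 1 was called, and it was lower (2.38%, against 1.18% of all genes). It was OXSR1 (-1.39, adjusted p = 0.0011), a kinase that regulates the cation-chloride cotransporters of the SLC12 family. In EPI OXSR1 was at -0.89 (adjusted p = 0.021), past the adjusted threshold and not the fold cutoff.

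Between EPI and MES control cells 13 SLC genes were called higher in MES and 15 lower, of 142 tested, while 5.39% of all genes were called higher and 7.15% lower. Of the 28, 27 are carriers by name and the other is SLC22A18AS. The EPI control libraries also serve the EPI knockdown comparison and the MES control libraries the MES one, so the values of these comparisons are set side by side and not correlated.

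Amino acid carriers, a class set by family, moved in both directions, 4 higher and 5 lower in MES of 25 tested. SLC43A1, a transporter of branched-chain amino acids also called LAT3, had 5.69, 0.984 and 3.10 scaled junction reads in the EPI controls and 38.2, 65.3 and 56.9 in the MES controls (log2 fold change 3.81, SE 0.46, limma adjusted p = 6.9e-05). SLC38A4, of the system A family, had 1.90, 1.97 and 9.31 in EPI and 27.4, 65.3 and 45.3 in MES (3.31, adjusted p = 9.2e-04). Both genes were close to absent in EPI, so these fold changes depend on the added 1. SLC38A6 was well covered in both states, with 332, 221 and 394 in EPI and 1165, 1146 and 1070 in MES (1.87, adjusted p = 3.7e-05). The fourth, SLC1A4, rose by 1.41 (adjusted p = 0.0014) from 44.2 ± 7.17 to 122 ± 36.0 (SD, n = 3 each).

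The 5 that fell were SLC7A8, SLC6A15, SLC6A6, SLC7A5 and SLC6A8. SLC7A8, the light chain of the transporter LAT2, had 373, 489 and 468 scaled junction reads in EPI and 70.6, 68.3 and 130 in MES (-2.35, adjusted p = 2.8e-04). SLC6A15, a neutral amino acid transporter, fell by 2.03 (adjusted p = 8.5e-04), SLC6A6, the taurine transporter, by 1.64 (adjusted p = 1.0e-04), and SLC6A8, the creatine transporter, by 1.10 (adjusted p = 0.0010) on the log2 scale. SLC7A5 fell by 1.32 (adjusted p = 0.0015), from 3143 ± 490 to 1271 ± 295. Of the 4 tested SLC6 members, 3 were thus called lower in MES and the fourth, SLC6A9, was at -0.44 (adjusted p = 0.276).

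Among the carriers of organic ions, the 2 carnitine and ergothioneine transporters of the SLC22 family rose. SLC22A4 had 4.74, 5.90 and 14.5 scaled junction reads in the EPI controls and 71.6, 66.3 and 34.8 in the MES controls (2.72, adjusted p = 8.0e-04). SLC22A5, the carnitine transporter OCTN2, had 175, 144 and 213 in EPI and 473, 466 and 293 in MES (1.19, adjusted p = 0.0060). SLC17A5 rose by 1.12 (adjusted p = 5.7e-04), and SLC22A15 fell by 1.13 (adjusted p = 0.015).

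Nucleoside carriers split. SLC29A2 (ENT2), an equilibrative transporter, had 263, 247 and 260 scaled junction reads in EPI and 21.6, 53.0 and 74.8 in MES (-2.51, adjusted p = 2.4e-04). SLC29A3 (ENT3), its relative on lysosomes, had a mean of 16.8 ± 1.56 in EPI and 108 ± 48.7 in MES (2.51, adjusted p = 4.3e-04). The widely expressed SLC29A1 was at -0.33 (adjusted p = 0.447).

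The carrier that fell the most was SLC2A9, the urate transporter GLUT9, with 709, 778 and 631 scaled junction reads in EPI and 99.0, 147 and 81.2 in MES (-2.72, SE 0.24, adjusted p = 4.65e-06). After knockdown it had 392, 545 and 473 in EPI and 46.0 and 59.9 in MES, which did not pass in either (-0.59, adjusted p = 0.431 and -0.995, adjusted p = 0.054). SLC45A1, a proton-coupled sugar transporter, rose by 3.66 (adjusted p = 4.0e-04) from 0, 1.97 and 2.07 in EPI to 23.5, 31.6 and 22.1 in MES, so that its fold change also rests on counts near 0. The main glucose transporter SLC2A1 was at -0.14 (adjusted p = 0.648).

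SLC37A2 and SLC37A1, sugar-phosphate exchangers of the endoplasmic reticulum, both fell. SLC37A2 had 1581, 1530 and 1722 scaled junction reads in EPI and 205, 364 and 493 in MES (-2.27, adjusted p = 1.1e-04), and SLC37A1 went from 145 ± 11.9 to 39.8 ± 11.7 (-1.89, adjusted p = 8.9e-04). SLC44A1, the choline transporter, rose from 1912 ± 116 to 5861 ± 1016 (1.60, SE 0.16, adjusted p = 1.0e-05). SLC27A1, a fatty acid transporter, fell by 1.47 (adjusted p = 6.1e-04).

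Of the ion carriers, SLC12A2, the sodium-potassium-chloride cotransporter NKCC1, rose by 1.16 (adjusted p = 0.0046) and SLC4A2, an anion exchanger, by 1.17 (adjusted p = 0.0019). SLC12A8 fell by 2.13 (adjusted p = 6.0e-04). For zinc, SLC39A7, which releases zinc from the endoplasmic reticulum and Golgi, rose by 1.04 (adjusted p = 0.0026), and SLC39A4, an importer at the cell surface, fell by 1.78 (adjusted p = 0.0028). Of the 31 mitochondrial carriers 1 was called, SLC25A37, which brings iron into mitochondria (-1.02, adjusted p = 0.013), and this call was lost without the first listed MES control (-0.71). Without a single library SLC22A15, SLC39A7, SLC6A8 and SLC22A18AS also lost their calls: SLC22A15 without the first or last listed EPI control or the first listed MES control, SLC39A7 without the second listed MES control (0.94), SLC6A8 without the first listed MES control (-0.97) and SLC22A18AS without the first or second listed EPI control. SLC22A18AS, which is not a carrier by name and overlaps SLC22A18 on the opposite strand, fell by 1.35 (adjusted p = 0.015), and reads of overlapping genes are uncertain.

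**Figure D3:**
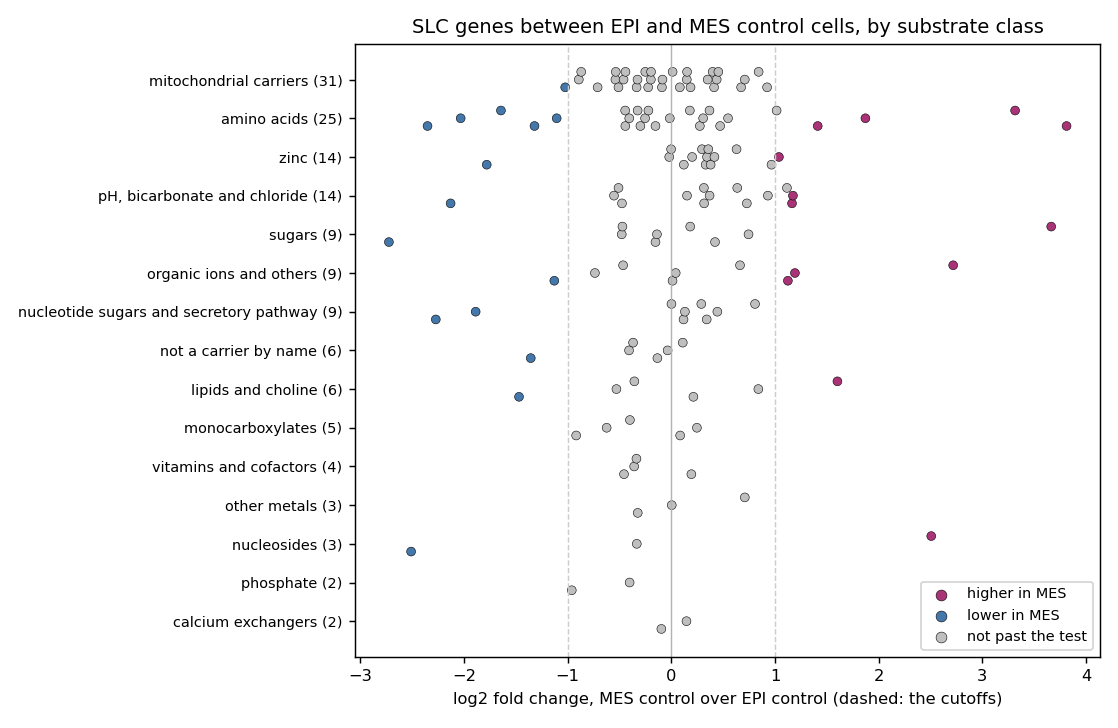
Log2 fold change of MES control over EPI control (horizontal axis) for the 142 tested SLC genes by substrate class (number tested in brackets); each point is a gene and the dashed lines are the fold cutoffs. Amino acid carriers lie on both sides, from -2.35 to 3.81, and the 31 mitochondrial carriers lie between -1.02 and 0.92.

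Of the other transport genes, 4 of 42 were called higher in MES (ABCA1, FLVCR2, SLCO2A1 and ATP2B1) and 3 lower (SLCO4A1, LRRC8A and ATP7B). SLCO4A1, an organic anion carrier, fell by 3.19 (adjusted p = 0.0023), and ABCA1, which exports cholesterol, rose by 3.04 (adjusted p = 2.3e-05).

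Across the 3 comparisons 31 carriers by name were called at least once and 105 of the tested carriers in none. Among 25 tested carriers of a panel of widely used transporters, SLC16A1 (lactate) was at -0.38, 0.020 and -0.62 in the EPI knockdown, the MES knockdown and the transition, SLC16A3 (lactate export) at 0.80, 0.45 and 0.086, SLC38A2 (small neutral amino acids) at -0.048, -0.17 and 0.37 and SLC20A1 (phosphate) at -0.60, -0.67 and -0.40, and none of these values was called. The SLC16A1 value in the transition passed the adjusted threshold and not the fold cutoff. Other panel carriers were called and are named above. The carriers called in the MES knockdown and in the transition were SLC17A5, SLC1A4, SLC44A1 and SLC7A5. SLC17A5 and SLC1A4 were higher in both, and SLC7A5 and SLC44A1 had opposite signs: SLC7A5 was lower in MES and higher after knockdown, SLC44A1 higher in MES and lower after knockdown. Both comparisons use the MES control libraries.

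Splicing of the carriers was read from the 5 event types: skipped exons (SE), mutually exclusive exons (MXE), retained introns (RI) and alternative 5′ and 3′ splice sites (A5SS, A3SS). The percent spliced in (PSI) is the share of the inclusion form, from junction reads divided by their effective lengths. For an MXE event it sets reads of the first exon against reads of the second. A transcript with both exons is neither form, so this PSI is no share of all transcripts. An event was called where a quasi-binomial test of the reads gave an adjusted p under 0.05 and PSI differed by at least 10 points.

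In neither knockdown was an event of an SLC gene called. In EPI 0 of 729 tested SE events and 0 of 266 events of the other 4 types passed, and in MES 0 of 668 and 0 of 230. At an unadjusted p under 0.05 and 10 points there were 3 SE events in EPI (0.412%, against 0.782% of all SE events) and 9 in MES (1.35%, against 1.06%). Of the other types there were 3 in EPI (1.13%, against 1.59%) and 6 in MES (2.61%, against 1.88%). Limma on the logit of PSI also called 0 in each. Over all genes 0.0588% of SE events and 0.0230% of the other events were called in EPI, and 0.0479% and 0.0712% in MES. That 0 passed does not show that there was no change. The study, with rMATS and at looser cutoffs, lists a skipped exon of SLC16A3 among those regulated by AKAP8 in MES cells. At nominal cutoffs like those used here, it also reports more AKAP8-regulated skipped exons over all genes in each state. Here 28 were called in EPI and 21 in MES. The largest difference among the SE events past the unadjusted threshold in EPI was in SLC2A8, an intracellular glucose transporter, at -35.7 points (adjusted p = 0.705), and in MES in SLC10A7, at 33.2 points (adjusted p = 0.763).

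Between EPI and MES 10 events in 8 carriers were called, of which the 3 in SLC22A5 share reads. Among SE events these were 6 of 751 tested, while 1.40% of all SE events were called, among MXE events 3 of 191 against 2.29%, and among A5SS events 1 of 22 against 4.29%. For SE and MXE events the share of SLC genes, 0.799% and 1.57%, lay under that of all genes, and for A5SS events 4.55% is that single event.

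**Figure D4:**
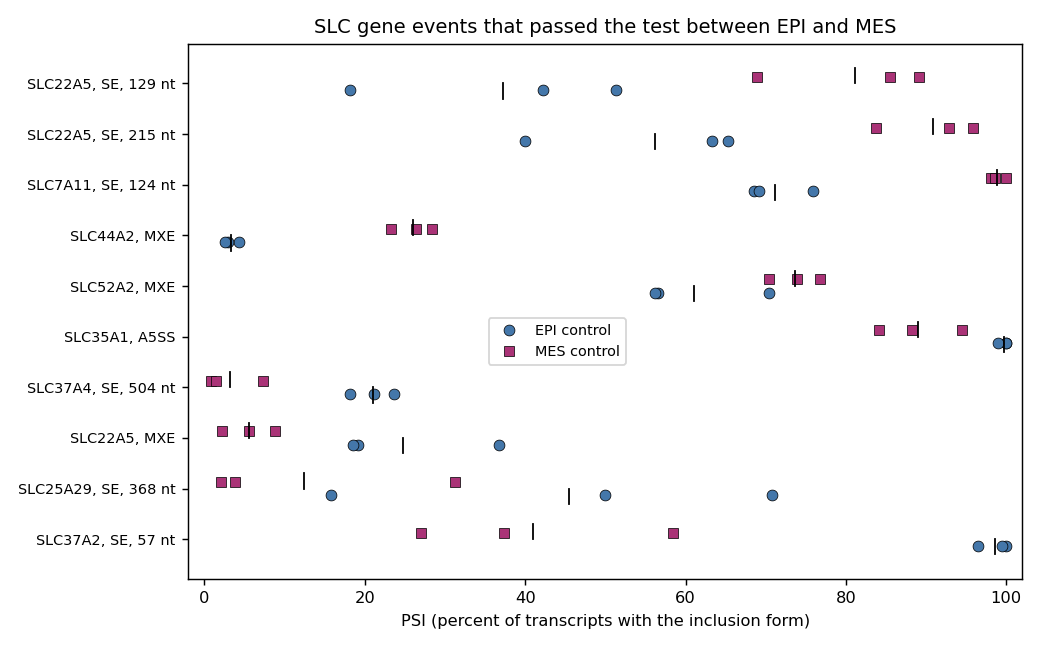
PSI (horizontal axis, percent) of the 10 called carrier events in each EPI and MES control library; the vertical ticks are group means, and names give the event type and exon length. The groups overlap for SLC25A29 and SLC52A2 and not for the other 8 events.

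SLC37A2 had the largest change. A 57-nucleotide exon at chr11:124956100-124956156 (GRCh37, plus strand) was included at 100%, 96.5% and 99.5% in the EPI controls and at 27.0%, 58.4% and 37.4% in the MES controls (-57.7 points, adjusted p = 3.6e-23). The groups were far apart, although the MES values rest on fewer reads, with 11, 44 and 29 inclusion and 19, 20 and 31 skipping reads against 352, 343 and 294 inclusion and 0, 8 and 1 skipping reads in EPI. The exon is exon 18 of 1 annotated transcript. Its first 25 bases are annotated as coding and the other 32 as untranslated, and the coding bases are shown because this exon changed the most:
SLC37A2 coding part: ctctagtatggtcctaacccaccag
In the EPI knockdown the exon was at 98.5% against 98.6% in the controls, and in MES at 24.3% against 42.7% (-18.4 points, adjusted p = 0.763).

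In SLC22A5 the same exon gave 2 events, which differ in their 3′ splice site by 86 bases. They share their skipping reads and the inclusion junction downstream of the exon. Reads at that junction come from either form, so neither PSI is the share of its own form alone. The 129-nucleotide event at chr5:131726468-131726596 (plus strand) had a PSI of 51.4%, 18.2% and 42.2% in EPI and 85.5%, 89.1% and 68.9% in MES (43.9 points, adjusted p = 0.0011). The 215-nucleotide event at chr5:131726382-131726596 had 63.3%, 40.0% and 65.3% in EPI and 92.8%, 95.9% and 83.7% in MES (34.6 points, adjusted p = 1.2e-04). Every MES value was above every EPI value in both. The longer form is part of 16 annotated transcripts and the shorter of 1, which is not of the protein-coding type. The exon is shown because it carries both events, with the 86 bases of the longer form only in capitals:
SLC22A5 exon: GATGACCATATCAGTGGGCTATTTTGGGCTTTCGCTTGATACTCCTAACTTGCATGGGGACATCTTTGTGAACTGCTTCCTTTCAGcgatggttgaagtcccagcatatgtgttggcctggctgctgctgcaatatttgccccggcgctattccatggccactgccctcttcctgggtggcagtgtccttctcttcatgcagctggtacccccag
The third SLC22A5 event is of the MXE type, on the pair of exons directly downstream. The annotation has the first in 19 transcripts (exon 2 to 9) and the second in 18 (exon 3 to 10). It does not show them to exclude each other. The event had a PSI of 19.1%, 36.7% and 18.6% in EPI and 5.52%, 2.26% and 8.86% in MES (-19.3 points, adjusted p = 0.0016). Its inclusion form uses the junction that skips the exon above, and its inclusion reads, 9, 18 and 13 in EPI and 8, 3 and 7 in MES, are nearly the skipping reads of the SE events, 9, 18 and 13 and 6, 3 and 7. It is therefore not a separate difference.

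SLC7A11 included a 124-nucleotide coding exon at chr4:139106275-139106398 (minus strand) at 75.9%, 68.6% and 69.1% in EPI and at 100%, 98.1% and 98.6% in MES (27.7 points, adjusted p = 7.3e-06). Its length is no multiple of the 3 bases of a codon. The gene's level did not differ between the states (log2 fold change 0.18, adjusted p = 0.745). In the EPI knockdown the exon was at 93.7%, 76.5% and 83.9%, above all EPI controls, and this did not pass (13.5 points, adjusted p = 0.705). It is shown because it was nearly always included in MES:
SLC7A11 exon: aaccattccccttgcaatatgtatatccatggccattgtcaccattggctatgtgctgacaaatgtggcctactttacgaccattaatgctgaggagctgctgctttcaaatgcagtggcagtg

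SLC44A2, a choline transporter-like protein, had an MXE event near its start. The PSI of the first exon was 4.29%, 2.94% and 2.64% in EPI and 26.4%, 23.3% and 28.4% in MES (22.7 points, adjusted p = 7.4e-19). The first exon lies at chr19:10736929-10736977 and the second at chr19:10738398-10738471 (both plus strand). In MES after knockdown the first exon was at 11.2% and 18.9% against 26.4% and 23.3% in the controls of that table (-9.82 points, adjusted p = 0.764), which did not pass. The annotation has the first as exon 2 of 9 transcripts and the second as exon 3 of 5, so it does not show them to exclude each other. Both exons are shown because the event sets their reads against each other:
SLC44A2 first exon: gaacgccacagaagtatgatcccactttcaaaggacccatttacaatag
SLC44A2 second exon: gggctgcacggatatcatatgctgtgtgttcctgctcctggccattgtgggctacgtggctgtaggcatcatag

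The other called events were smaller or less even. SLC37A4, the glucose-6-phosphate transporter of the endoplasmic reticulum, included a 504-nucleotide exon of untranslated sequence at 23.6%, 21.1% and 18.2% in EPI and 0.775%, 1.49% and 7.37% in MES (-17.8 points, adjusted p = 0.0010). SLC25A29, a mitochondrial carrier of basic amino acids, included a 368-nucleotide exon at 50%, 15.8% and 70.7% in EPI and 3.85%, 2.13% and 31.2% in MES (-33.1 points, adjusted p = 5.8e-04), and these overlapped. SLC52A2, a riboflavin transporter, had 56.6%, 56.1% and 70.4% in EPI and 70.4%, 76.7% and 73.9% in MES for the first exon of a pair (12.6 points, adjusted p = 0.0013), with a slight overlap. SLC35A1, the CMP-sialic acid transporter of the Golgi, used the longer form of an exon at 100%, 100% and 99.0% in EPI and 84.2%, 94.4% and 88.2% in MES (-10.7 points, adjusted p = 5.0e-04).

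Some of these calls depend on the test or on 1 library. Limma on the logit of PSI kept SLC37A2, SLC37A4, SLC7A11 and SLC44A2 and lost the other 6 events: the 215-nucleotide and the 129-nucleotide SLC22A5 events (adjusted p = 0.053 and 0.071), the MXE event of SLC22A5 (0.212), SLC25A29 (0.160), SLC52A2 (0.368) and SLC35A1 (0.056). In the quasi-binomial test some were lost without a library. The 129-nucleotide SLC22A5 event (34.4 points, adjusted p = 0.104) and the MXE event of SLC22A5 (-13.3 points, adjusted p = 0.072) were lost without the second listed EPI control. SLC25A29 was lost without the last listed EPI control (-20.5 points) or without the first listed MES control, SLC52A2 without the second listed EPI or the second listed MES control (10.2 and 11.1 points), and SLC35A1 without the first listed MES control (-8.31 points).

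AKAP8 binding was read from seCLIP, which sequences the RNA that is crosslinked to AKAP8, with peaks merged over 2 replicates by state. A peak was counted in a gene where it lay on the gene's strand with a log2 enrichment over input of at least 2 and a −log10 p of at least 3. In EPI 35 of the 204 SLC genes held a peak (17.2%, against 18.4% of all genes), and in MES 23 (11.3%, against 11.4%). Of these 32 and 20 are carriers by name. Of the 204, 20 held a peak in both states, 15 in EPI only, 3 in MES only and 166 in neither. Peak lists were called once per state, so these counts have no replicate error, and a gene with more RNA can give more peaks.

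SLC7A5 (chr16:87863629-87903113, minus strand) held the most peaks of any carrier in EPI, 107, and 12 in MES. Only 0.189% of genes had as many or more in EPI. Its level was also lower in MES, at 1271 ± 295 against 3143 ± 490 scaled junction reads. How far the level accounts for the peak counts was not tested. SLC16A3, a lactate exporter, held 62 peaks in EPI and 106 in MES with a level of 474 ± 79.2 and 500 ± 57.1. SLC19A1, the reduced folate carrier, held 36 and 78, SLC38A10 held 15 and 41, and SLC7A1 held 11 and 0. Of the 8 carriers called in the MES knockdown, SLC6A9, SLC7A1 and SLC7A5 held a peak in EPI and SLC6A9 and SLC7A5 in MES.

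**Figure D5:**
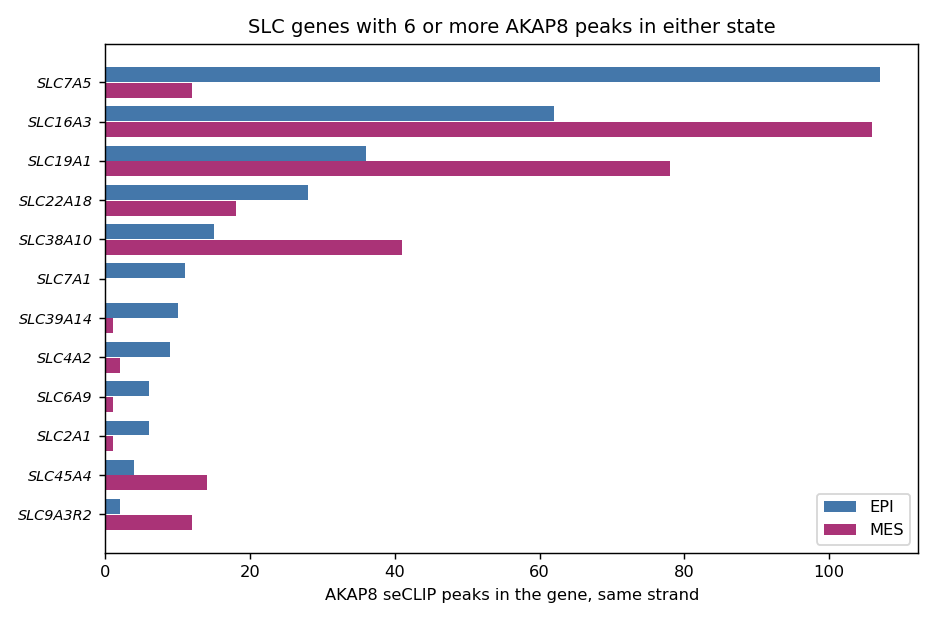
AKAP8 seCLIP peaks (horizontal axis, number of peaks on the gene's strand) in the SLC genes with 6 or more peaks in EPI or MES. SLC7A5 goes from 107 peaks in EPI to 12 in MES, while SLC16A3, SLC19A1 and SLC38A10 have more in MES.

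The strongest SLC7A5 peaks of both states lay in the same intron and overlapped, at chr16:87878270-87878300 in EPI (log2 enrichment 5.43) and chr16:87878224-87878275 in MES (4.05), 3509 and 3463 nucleotides from the nearest exon. The strongest SLC7A1 peak, in EPI, lay in an intron at chr13:30164264-30164347 (4.24). They are shown because they are the strongest bound stretches of the called amino acid carriers with the most peaks, read on the gene's strand:
SLC7A5 peak, EPI: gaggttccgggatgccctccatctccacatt
SLC7A5 peak, MES: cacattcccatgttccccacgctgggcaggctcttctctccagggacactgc
SLC7A1 peak, EPI: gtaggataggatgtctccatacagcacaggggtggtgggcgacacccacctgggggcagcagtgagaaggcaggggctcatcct

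None of the 13 exons and segments of the 10 called events had a peak within 1000 nucleotides in either state, and the closest peak was 7865 nucleotides away.

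The promoters of the SLC genes were searched for TGATGNAA on both strands, a form of the element that the factor ATF4 and its partners bind in amino acid response genes; the motif was chosen with the results known. Of 160 SLC genes in the RefSeq promoter table (a short window around each start, GRCh38.p14), 10 held it (6.25%), against 3.67% of all 27305 promoters. Of the 5 amino acid carriers called higher in MES, all of them in that table, SLC7A1 held it. Its stretch is shown at chr13:29595663-29595692, and that of SLC3A2 at chr11:62881725-62881748, with the motif in capitals; the SLC3A2 match is on the opposite strand:
SLC7A1 promoter: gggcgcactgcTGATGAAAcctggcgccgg
SLC3A2 promoter: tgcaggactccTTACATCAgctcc
A match of letters is not a bound site, and binding of that factor was not measured here.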

How the data were processed

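Per the labels, stranded poly(A) RNA libraries were made from 11 cultures and seCLIP libraries from AKAP8 immunoprecipitates and inputs. The authors aligned reads to GRCh37 with STAR (2.6.1a in the submitters' processing notes, which also name featureCounts 1.5.0) and counted junctions with rMATS. The 15 deposited tables give, for 3 comparisons and 5 event types, inclusion and skipping junction read counts of each library as the authors deposited them, and their effective lengths. The authors' columns of p, FDR and PSI difference, the 30 columns of per-sample PSI and the authors' DESeq2 gene table were not used. The deposited peak lists hold log2 enrichment over input and −log10 p as the authors computed them for peaks merged over 2 replicates by state.

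PSI was recomputed as inclusion reads over inclusion plus skipping reads, each divided by its effective length. Gene values were junction reads summed over SE events present in all 3 comparisons and scaled by median-of-ratios size factors; a junction shared by several events counts in each. Genes needed 10 in at least 2 libraries. limma 3.58.1 (R 4.3.3) with a trend was fitted to log2(value + 1) over 4 groups and 11 libraries, and p-values were adjusted by Benjamini-Hochberg over 9016 genes. The knockdown event tables hold 2 MES controls, whereas 3 are in the tables of the transition and in the gene fits. Events needed 20 junction reads per library on average and were tested by a quasi-binomial likelihood ratio with dispersion moderated by limma, each type over its whole table.

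Both tests were tested on simulated data. By adjusted p alone, without the fold cutoff, the gene test recovered nearly all changed genes. Only well covered genes were changed, and all genes had the same simulated spread. How many changed genes the calls used here would recover was therefore not measured. For the 49330 SE events of the transition, the event test recovered 107 of 200 changed events, with 2 false calls, where overdispersion was the same at every depth. It recovered 0 of 200 after adjustment, with 0 false calls, where libraries varied by a constant correlation of 0.01, so that overdispersion grew with depth. That second form was tried first, and the simulation was then changed and not the test. Which form is nearer to these libraries was not tested. That an event was not called therefore says little about whether it changed.

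Genes were named by rule: called carriers with groups that do not overlap, up to 10 in each direction, a fixed panel of common carriers, and all called events; 1 panel carrier is not reported here. SLC39A7, SLC22A15 and SLC6A8 fall past the first 10 of their direction, and these and the genes below the cutoffs were named after their values were seen. The members, the lists and the promoter motif were chosen with earlier results of these data known. Promoters came from RefSeq (GRCh38.p14) and exons from a GRCh37 reference.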

Additional observations from a re-analysis of the deposited data

How the results depend on the processing

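Direction was followed for the called genes and events and for a few other named genes, and it was kept in every alternative tried. The groups of the called genes did not overlap, so leaving out a library could hardly reverse them. Of the counts of calls, 126 stayed near the main count and 19 moved. With the single SE event of most reads the EPI knockdown called 2 SLC genes, and with only the groups compared 0. Leaving out a library gave 0 to 1 in EPI, 4 to 10 in MES (8 with all libraries, and 4 without either MES shAKAP8 library), 27 to 32 in the transition and 0 to 1 for the difference between states. Without a fold cutoff 43 SLC genes were called in the transition, 28 with it. In the transition limma on the logit of PSI called 3 of the 6 SE events and 1 of the 4 other events, and a PSI cutoff of 5 points called 7 of the other events. Leaving out a library gave 5 to 11 SE events and 3 to 9 others in the transition, 0 to 2 other events in EPI and 0 to 1 in MES. The effective-length weighting of inclusion reads was chosen after seeing the data and gave 9 SLC genes in MES. No paired analysis was possible because the libraries carry no replicate number in the deposited tables. With 2 MES shAKAP8 libraries, a call that rests on either is weak. Depth was similar in all libraries, and genes and events with few reads have the widest error.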

Other observations

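A set of 10 genes outside the carriers was picked by hand after the values were seen. Most work in amino acid synthesis, one-carbon metabolism or tRNA charging, and ATF4 is a transcription factor and VLDLR a lipoprotein receptor. In MES after knockdown the asparagine synthetase ASNS rose by 1.88 (limma adjusted p = 0.0011), the serine synthesis enzyme PSAT1 by 1.08 (adjusted p = 0.0023), the leucine sensor SESN2 by 1.49 (adjusted p = 0.011), the mitochondrial folate enzyme MTHFD2 by 1.01 (adjusted p = 0.0031) and the glycyl-tRNA synthetase GARS by 1.01 (adjusted p = 0.0039) on the log2 scale. ATF4 was at 0.99 (adjusted p = 0.0068) and so missed the fold cutoff. SHMT2 at 0.74 (adjusted p = 0.134), AARS at 0.39 (adjusted p = 0.383), VLDLR at 1.79 (adjusted p = 0.066) and WARS at 0.75 (adjusted p = 0.048) were not called. In EPI the same 10 genes were between 0.25 and 1.21 and none was called. These 10 genes were picked with the results known, and they give no independent support.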
